A study of Mus musculus with 9 samples.

Results

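The S100 proteins are small calcium-binding proteins with a pair of EF-hand loops each. Most work as dimers that, once they bind calcium, dock onto target proteins such as annexins, myosin or cytoskeletal linkers, and some are also released and act on cell-surface receptors. Chondrocytes have long been stained with antibodies to S100 protein, and S100a1 and S100b are known targets of the cartilage factors Sox5, Sox6 and Sox9. The members of the family that are not defining products of neutrophils are described here across the growth plate. All probe sets (groups of probes for 1 transcript on the array) annotated to a single gene among 8 listed S100 genes were taken, which gave 12 probe sets of 7 genes, out of 18193 genes with a probe set of their own. The gene S100a11 is not described, because its only probe set is also annotated to 2 other loci, Gm12854 and S100a11-ps.

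Messenger RNA came from 3 layers, called round, flat and hypertrophic, of the cartilage growth plate at the proximal end of the tibia in newborn wild-type Black Swiss mice (age 0 days). In this tissue, round cells near the joint give way to flat cells in columns, and these enlarge into hypertrophic cells next to bone. Each layer was cut by hand from frozen sections, with no step that isolates chondrocytes. Each of the 9 arrays held RNA pooled from 18 to 20 tibiae of 1 litter, and 3 litters gave the triplicates. Arrays of the 3 layers with the same replicate number were taken as 1 litter, which the labels do not state outright. In pooled tissue, fewer cells of a type and less RNA per cell cannot be told apart.

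The values are MAS5 signal intensities, a linear measure of probe brightness, and they set no gene's level against another's. Differences are given on a log2(signal + 26) scale, which understates the change of dim genes. They were tested with limma with litter as a block, with Benjamini-Hochberg adjustment of p over all 11313 genes tested in a contrast. A gene is said to rise or fall where adjusted p was below 0.05. Median signals were 123 to 152 across arrays, of which there are 9, and their number limits the precision. The round label was borne out by Prg4, the joint lubricant gene (mean signal 15342 in round, 385 in flat and 199 in hypertrophic samples). The hypertrophic label was borne out by Col10a1, the collagen X gene (139, 664 and 11857). No marker was listed for the flat layer. All 5 listed hypertrophic markers rose already from round to flat, and again from flat to hypertrophic. Mean signals in the same order were 598, 7430 and 11898 for Alpl and 4805, 9881 and 34828 for Mmp13. The round array of litter 1 had 3'/5' signal ratios, a measure of RNA integrity, of 4.25 for Actb and 2.59 for Gapdh, against at most 2.06 and 1.28 on the other 8 arrays. Skeletal muscle signal was highest in the flat layer, where 18 of 18 muscle markers rose over the round layer and 17 of 18 fell again in the hypertrophic layer. Their summed signal ran from 154976 to 252499 on round arrays, from 360332 to 582865 on flat arrays and from 152446 to 360057 on hypertrophic arrays.

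All S100a genes lie on chromosome 3 and S100b on chromosome 10. In RefSeq's gene order for GRCm38.p6, S100a1 and S100a13 are direct neighbours, S100a4 and S100a6 are separated by S100a5, and S100a10 follows S100a11. Promoter sequence from RefSeq (GRCm38.p6) was matched for 7 of the 8 listed genes, S100a10 being the exception. Of these, 4 stretches are shown for the genes whose patterns are contrasted below. S100a4 and S100a6 parted in the hypertrophic layer, S100b was low there, and S100a1 and S100a13 start back to back. Each is written 5′ to 3′ on the plus strand and ends at the last base before the transcript's start. The exception is the S100a1 and S100a13 stretch, which holds the bases between their starts, S100a1 being read leftward and S100a13 rightward. Capitals mark matches on either strand to TATAAA, the letters CCAAT, then ACAAT (a core letter pattern of Sox sites), TGANTCA (of AP-1 sites) or GGGCGG (of GC boxes).

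S100a4, chr3:90603520-90603769: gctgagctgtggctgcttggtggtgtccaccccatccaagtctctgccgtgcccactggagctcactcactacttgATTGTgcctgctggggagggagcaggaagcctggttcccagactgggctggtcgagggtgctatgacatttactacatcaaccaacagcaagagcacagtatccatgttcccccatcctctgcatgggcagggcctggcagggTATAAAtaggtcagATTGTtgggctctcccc
S100a6, chr3:90612644-90612893: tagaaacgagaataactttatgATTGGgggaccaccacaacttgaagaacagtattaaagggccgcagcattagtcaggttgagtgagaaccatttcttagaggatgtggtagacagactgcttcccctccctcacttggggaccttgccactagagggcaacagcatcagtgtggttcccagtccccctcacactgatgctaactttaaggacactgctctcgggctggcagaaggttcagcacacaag
S100b, chr10:76253586-76253835: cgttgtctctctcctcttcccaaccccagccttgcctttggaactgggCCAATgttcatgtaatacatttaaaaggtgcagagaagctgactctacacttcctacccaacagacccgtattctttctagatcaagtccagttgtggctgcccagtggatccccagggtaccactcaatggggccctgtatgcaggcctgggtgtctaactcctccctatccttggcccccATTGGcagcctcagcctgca
S100a1 and S100a13, chr3:90514331-90514434: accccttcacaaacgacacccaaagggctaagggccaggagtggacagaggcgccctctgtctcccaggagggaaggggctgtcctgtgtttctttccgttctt

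The S100a4 stretch held a TATAAA match that began 31 bases before the start, and 2 ACAAT matches on the opposite strand, 174 and 17 bases before it. The S100a6 stretch held 1 CCAAT match and the S100b stretch 2, and the 104 bases between the S100a1 and S100a13 starts held no match. Over all 32851 promoter windows in the table (250 bases before to 50 after a start), 13.6% held TATAAA, 37.4% CCAAT, 31.0% ACAAT, 7.81% TGANTCA and 35.7% GGGCGG on either strand. These matches describe letters only.

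Across the growth plate the 7 genes fell into a few patterns. S100a4 was high at both ends and low in the flat layer, and S100a13 had the same shape with a smaller step. S100a6 and S100a10 were high in the round layer and low in both others. S100b was low in the hypertrophic layer, S100a16 fell modestly from round to flat, and S100a1 did not pass the test in any contrast. From the round to the flat layer 5 of the 7 fell and 0 rose, with a median log2 difference of -0.54, beside -0.01 over all genes tested, where 17.0% passed in either direction, 8.39% rising and 8.64% falling. From the flat to the hypertrophic layer 2 rose and 0 fell (median 0.13, all genes -0.00), against 11.3% of all genes passing, 6.12% rising and 5.22% falling. Between the hypertrophic and round layers 3 were lower and 0 higher (median -0.34, all genes 0.01), against 25.1% of all genes passing, 12.4% higher and 12.7% lower. By limma's F test over the 3 layers 5 of the 7 differed, against 28.4% of all genes.

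**Figure D1:**
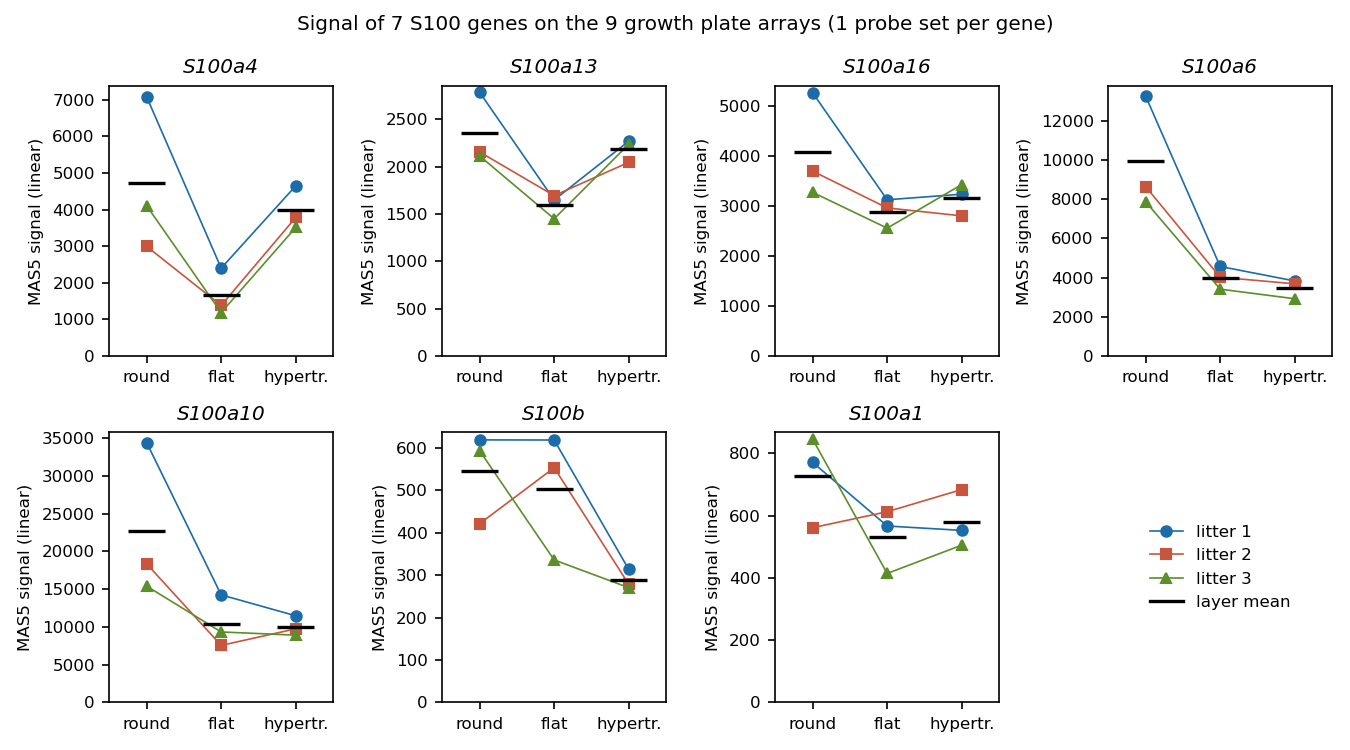
MAS5 signal (linear scale from 0) of 7 S100 genes on the 9 arrays, by layer, with 1 probe set per gene. Symbols joined by a line are 1 litter and black bars are layer means. S100a4 dips in the flat layer in every litter, while S100a6 and S100a10 stay low in the hypertrophic layer.

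**Figure D2:**
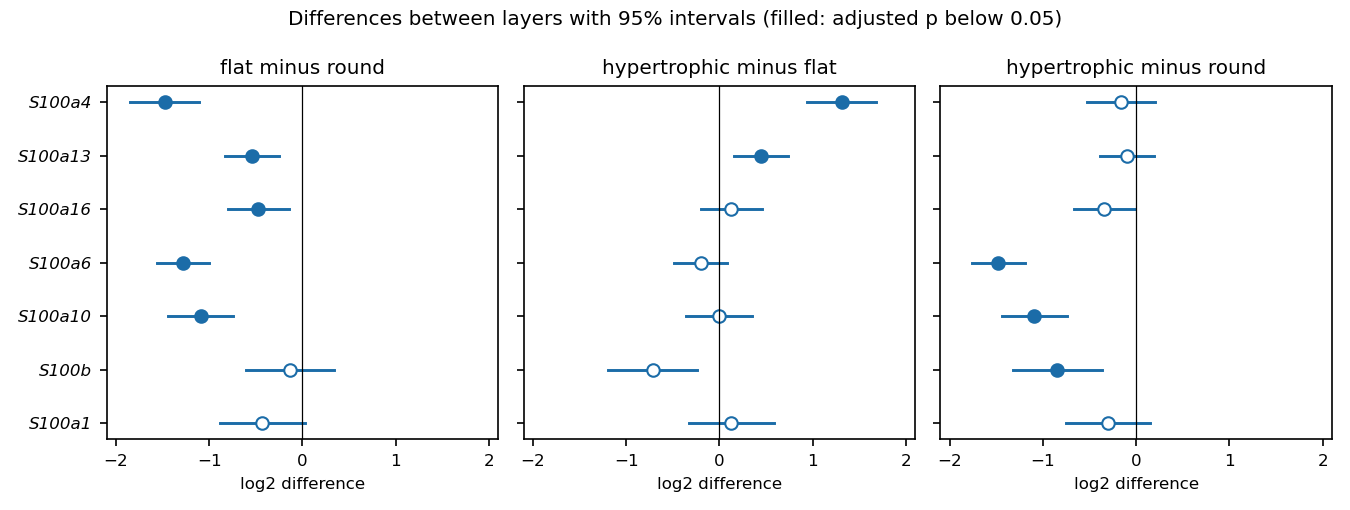
Log2 differences between layers from limma, with 95% intervals, and filled points where adjusted p was below 0.05. S100a4 and S100a13 are filled on opposite sides of 0 in the first and second panels, and S100a6, S100a10 and S100b are filled in the third.

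S100a4, also called fibroblast-specific protein 1, binds non-muscle myosin and is known from motile fibroblasts and macrophages. Its signal was 7079, 2993 and 4103 on the round arrays of litters 1 to 3, 2397, 1378 and 1183 on the flat arrays and 4647, 3783 and 3510 on the hypertrophic arrays. Every flat array lay below every array of the other layers, and the round and hypertrophic arrays overlapped. The gene fell 2.78-fold from the round to the flat layer (log2 -1.48 ± 0.17, SE, n = 3 litters, limma adjusted p = 0.000101). It rose 2.48-fold from the flat to the hypertrophic layer (1.31 ± 0.17, adjusted p = 0.000438). Both steps had the same direction in 3 of 3 litters. Between the end layers the difference was -0.16 (95% interval -0.53 to 0.20, adjusted p = 0.524), and its sign differed between litters.

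Other cell types moved with parts of this pattern. The flat layer, where S100a4 was lowest, had the highest muscle signal. With a muscle marker score as a covariate both steps remained past the threshold (-2.09 and 1.80, limma adjusted p = 0.0119 and 0.0166). The muscle markers themselves differed with layer, so here and below this fit cannot tell muscle and layer apart. With it, the calls over all genes went from 1926 to 380 (flat minus round) and from 1283 to 153 (hypertrophic minus flat). The 10 macrophage markers were all above the filter. From the flat to the hypertrophic layer 4 rose (Cd68 1.56, Csf1r 1.07, Lyz2 1.03 and Ctss 0.85) and 1 fell (Mrc1 -1.01). The 5 that did not pass were Cd14 (0.23), Adgre1 (-0.10), C1qb (-0.19), C1qa (-0.29) and Fcgr3 (-0.49). The median was 0.06, and 5 of the 10 passed in either direction, beside 11.3% of all genes. The summed signal of the 10 spanned 13636 to 14331 on round, 15056 to 17838 on flat and 21618 to 28396 on hypertrophic arrays. Its largest part in each layer was Csf1r, with mean signals of 4732, 6323 and 13322. The summed signal of 7 osteoclast markers was 2397 to 3418, 5565 to 9895 and 29389 to 41371. The macrophage and osteoclast sums were lowest on the round arrays, where S100a4 was high. Both sums were highest on the hypertrophic arrays, where S100a4 rose over the flat layer. For the macrophage list this holds for the sum, and not for its markers as a set. The summed signal of 10 tendon, perichondrium and fibroblast markers was 244019 to 283011, 197482 to 262671 and 173209 to 192959, most of it from Col1a1, Col3a1 and Postn. From round to flat 4 of these 10 fell, namely Dpt (-2.54), Thbs4 (-1.82), Col14a1 (-1.18) and Tnmd (-0.69), and 0 rose. From flat to hypertrophic, where S100a4 rose, 5 fell and 0 rose. Of 7 endothelial markers, 2 fell from round to flat (Kdr -0.68 and Esam -0.44), 0 rose and 5 did not pass. From flat to hypertrophic 5 rose, among them Kdr (0.67) and Esam (0.63), 0 fell and 2 did not pass. The shares that passed were 28.6% and 71.4%, beside 17.0% and 11.3% of all genes. Against the round layer 3 were higher in the hypertrophic layer and 0 lower. The part of the cells of these lists in the result was not tested.

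S100a13 assists the release of the growth factor Fgf1 and of interleukin 1 alpha from cells by a route outside the classical secretory pathway. Its signals were 2787, 2156 and 2114 on the round, 1649, 1695 and 1450 on the flat and 2270, 2047 and 2238 on the hypertrophic arrays. As for S100a4, every flat array lay below all others. It fell 1.46-fold from the round to the flat layer (-0.54 ± 0.13, adjusted p = 0.0141) and rose 1.36-fold to the hypertrophic layer (0.45 ± 0.13, adjusted p = 0.0490, limma), each in 3 of 3 litters. The rise lies at the edge of the threshold and was lost in 15 of 21 alternative settings, among them the fit without the litter block (adjusted p = 0.139) and those without any one hypertrophic array (0.114 to 0.250). The fall was lost without the flat array of litter 1 (0.0843) or of litter 3 (0.0587) and with the muscle score as covariate (0.165). Its cargo genes Fgf1 and Il1a lay below the filter on low values and were not tested.

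S100a1, whose start lies 104 bases from that of S100a13, is best known from heart and skeletal muscle, where it binds the calcium release channel Ryr1, the calcium pump Atp2a2 and titin. On its brighter probe set it gave signals of 771, 561 and 846 on the round, 567, 613 and 414 on the flat and 553, 684 and 505 on the hypertrophic arrays, and the 3 layers overlapped. No contrast passed: the differences were -0.43 (95% interval -0.88 to 0.02) for flat minus round, 0.13 (-0.32 to 0.58) for hypertrophic minus flat and -0.30 (-0.76 to 0.15) for hypertrophic minus round, with adjusted p of 0.189, 0.767 and 0.325. Without the round array of litter 2 the first became -0.71 (adjusted p = 0.0423). Muscle signal was highest in the flat layer. The mean S100a1 signal was 531 ± 104 there and 726 ± 147 in the round layer, and this difference did not pass. The S100a1 partners Ryr1 (1.72 ± 0.24) and Ttn (1.69 ± 0.20) rose from the round to the flat layer, as did Atp2a1 (1.75 ± 0.23), the pump of fast muscle. Atp2a2 did not pass in this contrast (0.15, limma adjusted p = 0.420). The part of muscle in the S100a1 signal was not tested. The step from the flat to the hypertrophic layer was larger for S100a13 than for its neighbour in 3 of 3 litters, by 0.49, 0.12 and 0.35. An exact two-sided sign-flip permutation test of that gap gave p = 0.25, the smallest that 3 litters allow.

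S100a6, or calcyclin, is abundant in fibroblasts and dividing cells and binds the ubiquitin-pathway adaptor Cacybp. Its signals were 13256, 8642 and 7870 on the round arrays, 4565, 4015 and 3407 on the flat and 3825, 3679 and 2917 on the hypertrophic arrays. All round arrays lay above all others, and flat and hypertrophic arrays overlapped. It fell 2.43-fold from the round to the flat layer (-1.28 ± 0.13, adjusted p = 4.17e-05) and was 2.79-fold lower in the hypertrophic than in the round layer (-1.48 ± 0.13, adjusted p = 4.73e-06, limma). The step from the flat to the hypertrophic layer was -0.20 (95% interval -0.48 to 0.08, adjusted p = 0.388), and it turned to 0.20 with the muscle score as covariate. Some tendon, perichondrium and fibroblast markers moved with both differences of S100a6 from the round layer. The 4 named above fell from round to flat. The other 6 did not pass, among them Postn (-0.06), Dcn (0.08), Col3a1 (0.08) and Col1a1 (0.09). In the hypertrophic against the round layer 7 of the 10 were lower, among them Dpt (-3.83), Thbs4 (-3.30), Col14a1 (-2.80) and Tnmd (-2.28). The 1 higher was Dcn (0.46). The shares that passed were 40.0% and 80.0%, beside 17.0% and 25.1% of all genes. S100a10, described next, had the same round-high pattern, and the part of these cells in either result was not tested. Cacybp itself passed in no contrast, with differences of 0.27, 0.11 and 0.38.

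S100a4 and S100a6 are near neighbours on chromosome 3 and both fell from the round to the flat layer, but they parted in the hypertrophic layer. The step of S100a4 from flat to hypertrophic exceeded that of S100a6 by 1.20, 1.57 and 1.77 on the log2 scale in litters 1 to 3 (mean 1.51 ± 0.29, SD, n = 3). The same exact sign-flip permutation test, two-sided, gave p = 0.25, the smallest possible. Both pairs of genes were chosen after their values were seen.

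S100a10, or p11, does not need calcium and forms a tetramer with annexin A2 that carries plasminogen activators and channels to the cell surface. It has 3 probe sets. The one with the highest mean, 1456642_x_at, whose name marks probes that can match other sequences too, gave 34412, 18359 and 15409 on the round, 14245, 7554 and 9333 on the flat and 11476, 9748 and 8911 on the hypertrophic arrays. The second, 1416762_at, gave 22297, 18868 and 18572, then 11635, 9564 and 9034, and then 9155, 8328 and 9267. The third, 1439348_at, gave 1755, 1731 and 1602, then 608, 707 and 621, and then 484, 393 and 526.

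On all 3 probe sets every round array lay above every other array. On the first, S100a10 fell 2.13-fold from round to flat (-1.09 ± 0.16, adjusted p = 0.000560) and was 2.13-fold lower in the hypertrophic than in the round layer (-1.09 ± 0.16, adjusted p = 0.000333, limma). With the muscle score as covariate the fall was larger, at -1.95 (adjusted p = 0.00436). The flat to hypertrophic step was -0.0036 on the first probe set, -0.17 on the second and -0.45 on the third, and on the third alone the hypertrophic arrays lay below the flat arrays without overlap. None of these passed (adjusted p = 0.995, 0.471 and 0.132 in limma's fit over 19624 probe sets, where 7.94% passed). The 95% interval on the first was -0.35 to 0.35.

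The array with raised 3'/5' ratios, round litter 1, gave the highest signal of all 9 arrays for S100a4, S100a6, S100a10, S100a13 and S100a16. Without it, the fall from round to flat was -1.35 for S100a4, -1.14 for S100a6 and -0.92 for S100a10, with adjusted p of 0.000397, 5.57e-05 and 0.00169. All 3 calls held without that array.

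S100a16, a broadly expressed member, was measured by 2 probe sets. The brighter gave 5268, 3700 and 3275 on the round, 3126, 2963 and 2558 on the flat and 3238, 2805 and 3431 on the hypertrophic arrays, and the other gave 5067, 2928 and 2057, then 2584, 2030 and 1941, and then 2831, 2014 and 2182. Round and flat arrays were apart on the brighter and overlapped on the other. The fall from round to flat on the brighter, by 0.47 ± 0.15 on the log2 scale (adjusted p = 0.0479, limma), is at the edge of the threshold. It was lost in 14 of 21 alternatives, and without the round array of litter 1 it was -0.32 (adjusted p = 0.158). In the fit over all probe sets, where 13.1% passed in this contrast, neither probe set passed (adjusted p = 0.0611 and 0.0668). The other contrasts did not pass in the gene fit (limma adjusted p = 0.659 and 0.118). Hypertrophic minus round passed without the hypertrophic array of litter 3 (-0.52, adjusted p = 0.0481) and with the muscle score as covariate (-0.46, 0.0274).

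S100b is the member used as a marker of Schwann cells, and it is also found in cartilage and fat. Its brighter probe set gave 619, 421 and 593 on the round, 619, 553 and 336 on the flat and 314, 278 and 270 on the hypertrophic arrays. All hypertrophic arrays were below all others. S100b was 1.80-fold lower in the hypertrophic than in the round layer (-0.85 ± 0.22, adjusted p = 0.0134, limma), in 3 of 3 litters. This call was lost without the round array of litter 3 (-0.63, adjusted p = 0.0839) or the hypertrophic array of litter 1 (-0.78, 0.0657). The step from flat to hypertrophic, -0.71 ± 0.22, was just outside the threshold (adjusted p = 0.0559). It passed without the flat array of litter 3 (-0.98, adjusted p = 0.0186) or the round array of litter 3 (-0.71, 0.0388).

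Between flat and round S100b differed by -0.13 (95% interval -0.61 to 0.34, adjusted p = 0.730). The second probe set of S100b gave 304, 463 and 492, then 396, 391 and 311, and then 295, 220 and 324. There the hypertrophic arrays overlapped with both other layers, and hypertrophic minus round was -0.53 ± 0.24 without passing (adjusted p = 0.147 over all probe sets, where 21.0% passed in this contrast). The single member probe set under the filter, 1417421_at of S100a1, gave 30.0 to 188 over the 9 arrays and was not tested.

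**Figure D3:**
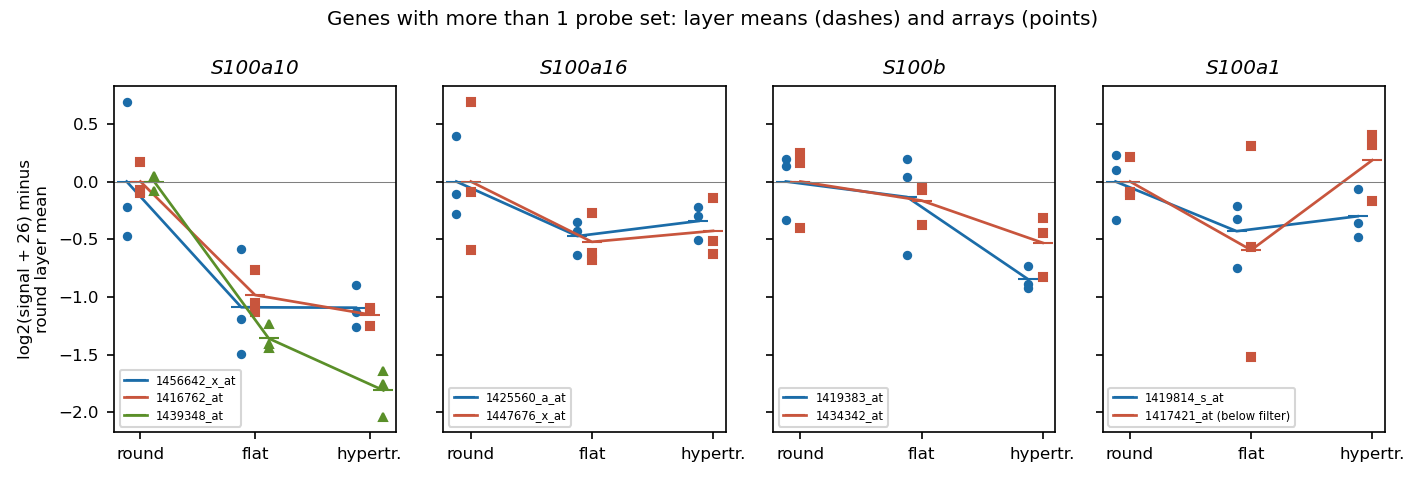
Log2(signal + 26) minus the mean of the round layer for the 4 genes with more than 1 probe set, with points for arrays and dashes joined by lines for layer means. The 3 S100a10 probe sets all drop by about 1 or more from the round layer. The means of the 2 S100b probe sets are both lower in the hypertrophic layer, by 0.85 and 0.53, and their points overlap there.

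Schwann cells also make S100b, so their markers were listed. Of 12 glial markers 9 have a probe set of their own and 5 were above the filter. The summed signal of the 9 spanned 1768 to 1970 on round, 1896 to 3250 on flat and 968 to 2048 on hypertrophic arrays. The highest sum was on the flat array of litter 3, which also had the highest Erbb3 (992), Ngfr (967) and summed muscle signals. Of the 5 tested markers, Ngfr alone fell from flat to hypertrophic (-0.83, limma adjusted p = 0.0228) and 0 rose. That share is 20.0%, beside 11.3% of all genes. Egr2 alone was lower in the hypertrophic than in the round layer (-0.98, limma adjusted p = 0.00512) and 0 were higher. Here the share is 20.0%, beside 25.1% of all genes. Mbp had its highest mean signal in the hypertrophic layer (135, 180 and 245) and passed in no contrast (limma adjusted p = 0.461, 0.534 and 0.106). Sox10, the factor that defines the lineage, passed in no contrast (limma adjusted p = 0.664, 0.435 and 0.669). The summed signal of 5 adipocyte markers, 3 of them above the filter, was 11804 to 17488, 7802 to 14227 and 10152 to 11767. Most of it came from Fabp4 (mean signals 12972, 11238 and 10122). The part of either cell type in the result was not tested.

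The regulators set beside S100a1 and S100b are the Sox factors of chondrocytes, and all 3 fell from the round to the flat layer. By layer from round to hypertrophic, Sox5 gave mean signals of 1559 ± 51.2 (SD, n = 3), 446 ± 90.0 and 98.2 ± 26.1, Sox9 1952 ± 103, 678 ± 275 and 316 ± 101, and Sox6 1244 ± 108, 888 ± 165 and 662 ± 118. Sox5 and Sox9 fell again in the hypertrophic layer (-1.93 and -0.998, adjusted p = 9.12e-05 and 0.00683), and Sox6 did not pass in that step (-0.41, adjusted p = 0.0918). The largest step of Sox9, from round to flat, was -1.57 ± 0.20. Over that same step S100b and S100a1 did not pass. In the hypertrophic layer against the round layer, Sox5 (-3.69), Sox9 (-2.57), Sox6 (-0.90) and S100b (-0.85) were all lower, and S100a1 did not pass (-0.30).

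**Figure D4:**
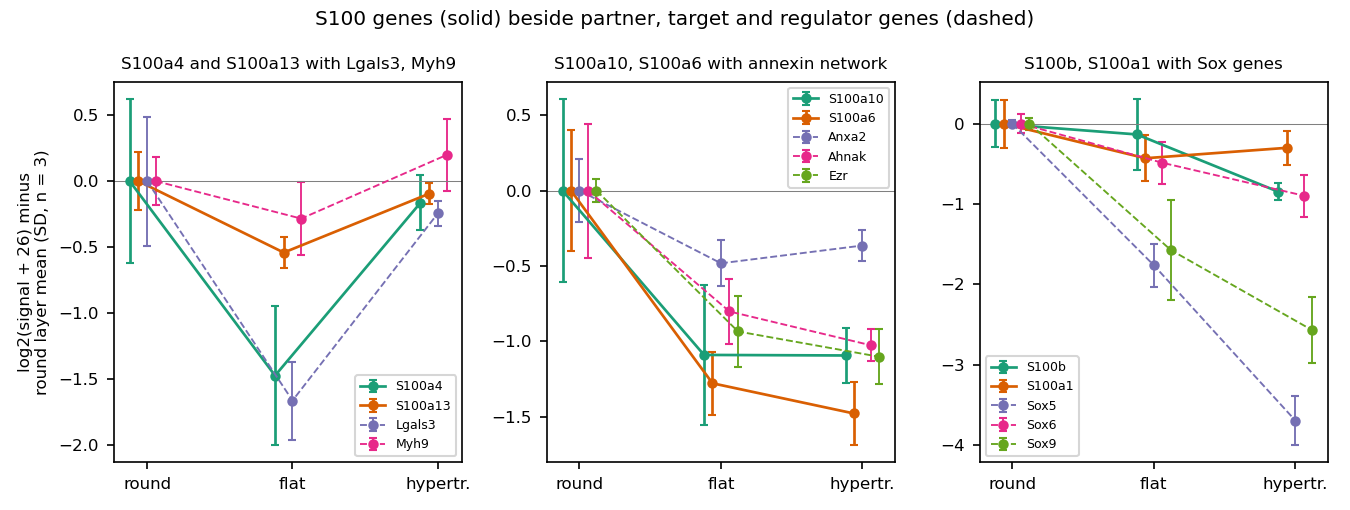
Log2(signal + 26) minus the mean of the round layer, as layer mean with SD over 3 litters, for S100 genes (solid) and selected other genes (dashed). Lgals3 dips in the flat layer as S100a4 does, Ahnak and Ezr lie near S100a10, and Sox5 and Sox9 drop further than S100b and S100a1.

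Partner and receptor genes were described from a list of 36, of which 34 had a probe set of their own and 27 were tested. From the round to the flat layer 6 fell and 3 rose (median -0.16, all genes -0.01), or 33.3% of those tested, beside 17.0% of all genes. Those that fell were Anxa2, the partner of S100a10 (-0.48 ± 0.11, adjusted p = 0.0114), Ahnak, a giant scaffold bound by the Anxa2 and S100a10 complex (-0.80 ± 0.14), Ezr, which ties the membrane to actin (-0.93 ± 0.13), Iqgap1, a scaffold of the cell cortex (-0.70 ± 0.13), Anxa1, the partner of S100a11 (-0.42 ± 0.13), and Anxa5 (-0.39 ± 0.12). Other membrane or cytoskeletal genes of the list did not pass, such as Anxa6 (0.0054), Myh9 (-0.28), Myh10 (-0.08), Capza1 (-0.22) and Ppfibp1 (-0.33). The rises were the muscle genes Ryr1, Atp2a1 and Ttn.

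Anxa2 gave 29994, 23399 and 23253 on the round, 19736, 18808 and 16104 on the flat and 21360, 19164 and 18664 on the hypertrophic arrays, so that the round arrays lay above all others, as for S100a10. From flat to hypertrophic 3 partner genes rose and 4 fell (median -0.06, all genes -0.00), or 25.9%, beside 11.3% of all genes. Myh9, the non-muscle myosin heavy chain bound by S100a4, rose (0.48 ± 0.14, adjusted p = 0.0385), as did the actin capping subunit Capza1 and the protease Ctsb, and the 3 muscle genes and Myh10, a second non-muscle myosin (-0.41 ± 0.12, adjusted p = 0.0494), fell. Against the round layer the hypertrophic layer had 1 higher and 5 lower (median 0.07, all genes 0.01), a share of 22.2% that is near the 25.1% of all genes. These were Atp2a2 higher and Anxa2, Ahnak, Ezr, Iqgap1 and Myh10 lower. Ager, the receptor RAGE for several S100 proteins, had mean signals of 238 ± 98.3, 173 ± 72.9 and 162 ± 133 and passed in no contrast (adjusted p = 0.457, 0.589 and 0.123).

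Other calcium-binding EF-hand genes were counted the same way. Of 23 listed, 19 had a probe set of their own and 15 were tested. From round to flat 1 rose, the muscle parvalbumin Pvalb (0.81), and 1 fell, the calpain subunit Capn2 (-0.54, adjusted p = 0.00583), with a median of -0.23. From flat to hypertrophic Sdf4 and Cib1 rose and Pvalb fell, and against the round layer Rcn1, Rcn3 and Sdf4 were higher and Capn2 and Efhd1 lower in the hypertrophic layer. Medians were 0.0034 and -0.01. The shares of the 15 that passed were 13.3%, 20.0% and 33.3%, beside 17.0%, 11.3% and 25.1% of all genes, and with 15 genes each share rests on 2 to 5 of them.

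Of the S100 genes that mark neutrophils, S100a8 and S100a9 were tested. S100a8 had mean signals of 1191 ± 195, 3574 ± 1904 and 5504 ± 1934 and S100a9 1012 ± 105, 2729 ± 645 and 4429 ± 1689 in the same order of layers, and both rose in every contrast (1.43 and 1.39 from round to flat, 0.70 and 0.64 from flat to hypertrophic). Against the round layer their direction was opposite to that of the S100 genes above that fell, and from flat to hypertrophic it was the same as that of S100a4 and S100a13. S100a3, S100a5, S100a14 and S100g were below the filter.

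The genes most like each member were named by Pearson's r of log2 values over the 9 arrays among 11306 other tested genes. The arrays share litters and layers, so r is a description. S100a4 was most like Lgals3 (r = 0.979), which encodes the galactoside-binding lectin galectin 3, and then Atp6ap2 (0.967) and Ugdh (0.965). Lgals3 fell by 1.67 from round to flat and was 1.42 higher in the hypertrophic than in the flat layer. It also stood first for S100a13 (r = 0.962), followed by Niban2 and Icmt (0.961 and 0.959). S100a6 was most like 2310067E19Rik (0.991), Csad (0.990) and Tgfbi (0.987), a matrix protein induced by TGF-beta. S100a10 was most like Pttg1ip (0.979), Slc1a4 (0.979) and Nsmf (0.972), and S100b most like Pde1a (0.968), Zw10 (0.947) and Metap1d (0.943). Of the last, Pde1a and Zw10 passed in no contrast between layers, while Metap1d fell from flat to hypertrophic (-0.67, limma adjusted p = 0.0117). Within the family the highest values were 0.935 between S100a4 and S100a13 and 0.926 between S100a6 and S100a10, while S100b had r of 0.04 with S100a4 and 0.01 with S100a13.

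**Figure D5:**
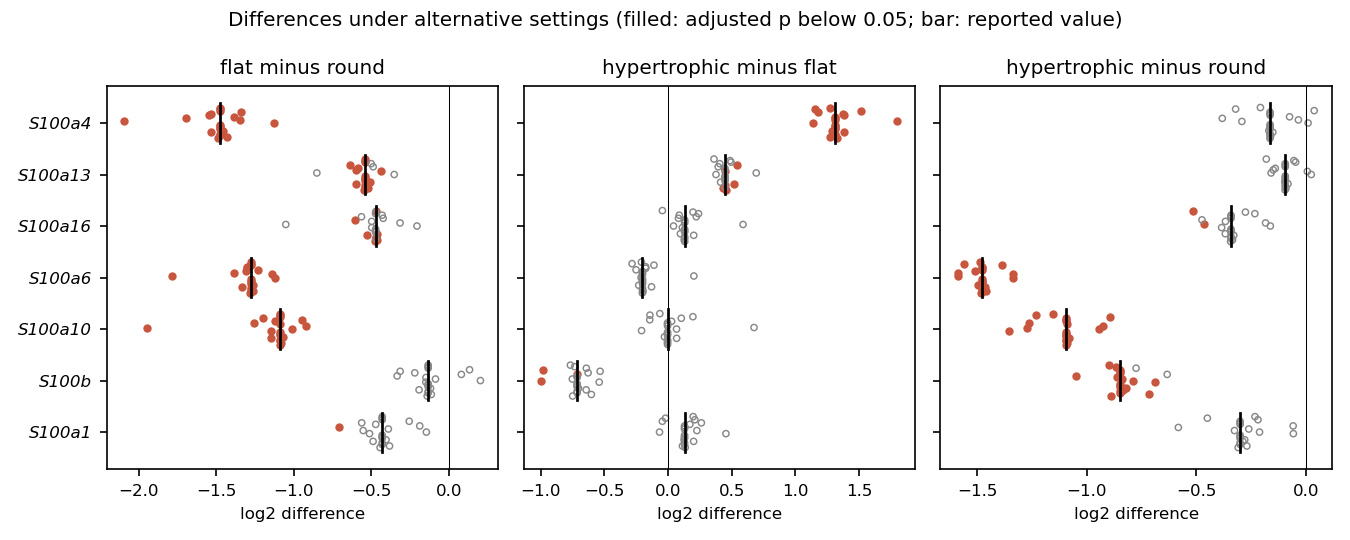
Log2 differences of the 7 genes under 21 alternative settings, filled where adjusted p was below 0.05, with a black bar at the reported value. Every point of S100a4, S100a6 and S100a10 in the first panel is filled, while S100a13 and S100a16 have open points around the reported value.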

How the data were processed

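The deposited intensity values are MAS5 signals made by the authors with Affymetrix Expression Console (named in the submitters' processing notes, without a version). On each array the mean after leaving out 2% of values at either end was 500.003, so arrays were used without further scaling. Of 45101 probe sets, 34945 were annotated to 1 gene. Each gene was represented by its probe set with the highest mean of log2(signal + 26), where 26 is the 20th percentile of all values, and was tested if that mean was above 7.212, the median of non-control probe sets. The fit was limma 3.58.1 in R 4.3.3 with terms for layer and litter and a mean-variance trend (4 residual and 8.15 prior degrees of freedom), and was tested on simulated data. Intervals are 95% intervals from the moderated fit. Scores for muscle are the mean centred log2 value of 18 markers.

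The litter block follows the labels, whose replicate number was taken as the litter. Deviations from layer means correlated with r of 0.167 to 0.517 in the 9 pairs of arrays of the same number and -0.434 to 0.081 in the 18 other pairs. Centring on layer means ties these values together, so the 18 other pairs are not separate evidence for the litters. Members, gene lists, tests and alternatives were chosen with earlier results of these data known. All 7 measured members are named, partner and Sox genes were named by a rule on threshold and size, and likeness by the 3 highest r for each member past the F test.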

Additional observations from a re-analysis of the deposited data

How the results depend on the processing

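Each of the 21 differences (7 genes in 3 contrasts) was refitted under 21 alternatives. Of the 10 calls, 6 were kept under all of them: both steps of S100a4, and for S100a6 and S100a10 the round layer against either other layer. Of 441 refits, 382 kept direction and side of the threshold, 35 lost a call, 6 gained one and 18 turned the sign, all 18 of differences that were not called.

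From flat to hypertrophic the count of 2 genes became 1 with no filter, quantile normalization, no replicate block, litter as a random replicate block, no trend, the mean of a gene's probe sets and the muscle covariate, and lay between 1 and 2 when single arrays were left out. From round to flat the count of 5 became 3 with the muscle covariate and without the round 1 and flat 3 arrays, and was 3 to 5 over single arrays. It was 3 without the flat array of litter 1 or of litter 3. The F-test count of 5 became 3 without the replicate block. Among probe sets, 1 called from flat to hypertrophic became 2 with median centring and without the round 1 and flat 3 arrays (1 to 2 over single arrays). The cause was not tested.

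Signs turned as follows. Without the round 1 and flat 3 arrays, S100a1 was at -0.067 and S100a10 at 0.067 (hypertrophic minus flat), S100a4 at 0.0088 and S100a13 at 0.023 (hypertrophic minus round) and S100b at 0.20 (flat minus round). For hypertrophic minus flat, S100a10 was at 0.068 with median centring and 0.67 with the muscle covariate, and S100a6 at 0.20 with the latter. Over single arrays the ranges were -0.044 to 0.26 (S100a1), -0.14 to 0.20 (S100a10) and -0.044 to 0.24 (S100a16) for hypertrophic minus flat, -0.38 to 0.037 (S100a4) and -0.18 to 0.0056 (S100a13) for hypertrophic minus round, and -0.33 to 0.13 (S100b) for flat minus round.

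Over all genes, the counts of 1926, 1283 and 2840 became 935, 553 and 1824 without the block. With the muscle covariate the first and second became 380 and 153, and over single arrays the 3 counts were 1225 to 1956, 591 to 1658 and 1770 to 2924.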
